A study of Mus musculus with 2 samples.

Results

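The cells described here were astroglial cells of the Sox1-GFP+ brain library. They carried RNA of at least 2 of Agt, Slc6a11, Slc6a9, Igsf1, Itih3 and Etnppl. They were selected on their measured molecule counts and numbered 3944 of the 7988 brain cells that passed the filters (49.4%, exact Clopper-Pearson 95% interval 48.3 to 50.5), and of 9952 such cells in both libraries. A cell was a member when at least 2 of those 6 genes were present, when more of them were present than of a second list of 6 (Chst2, Hapln1, Mgll, Slco1c1, Grm3 and Scara3), and when fewer than 3 of 6 genes of Bergmann glia (Gdf10, Gria1, Gria4, Dao, Hopx and Frrs1l) were present. A gene was present when its error-corrected molecule count was above 0. Members were described against 939 cells (11.8%) with at least 2 genes of the second list and more of the second list than of the first, called Chst2 Hapln1 cells here. The limit on Bergmann genes was not applied to the Chst2 Hapln1 cells, and 27 of them (2.88%) held 3 or more.

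Cells of the study carried a GFP gene placed in the Sox1 locus and were sorted for GFP after trypsin dissociation, then captured with the BD Rhapsody system, in which each captured molecule has its own identifier. There was 1 library of adult brain and 1 library of postnatal tail. Each library was a single biological replicate, and whether animals were pooled for it is not given in the sources used here. Cells of 1 library are not replicates, so no test was run, and every interval covers counting error only.

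Astrocytes take up transmitters released by neurons, buffer potassium and water, and provide metabolites. They arise from radial glia that carry the positional identity of the part of the neural tube in which they formed, and regional transcription factors can stay expressed in the mature cells. Adult neural stem cells of the forebrain resemble astrocytes in much of their RNA, which makes both classes hard to separate by markers. The genes of the rule cover several of these tasks. Agt encodes angiotensinogen, the precursor of angiotensin peptides, which brain astrocytes secrete. Slc6a11 encodes the GABA transporter GAT-3 and Slc6a9 the glycine transporter GlyT1. Itih3 encodes a heavy chain that binds hyaluronan, Igsf1 a membrane glycoprotein with immunoglobulin domains, and Etnppl an enzyme that breaks down phosphoethanolamine.

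Promoters of genes that mark the members are shown because these genes were detected together in the same cells. Of 10 genes looked up (the 6 of the first list with Foxb1, Sparc, Sfrp5 and Lhx2), 9 had windows of 300 bases around an annotated start in RefSeq on GRCm38.p6, 15 windows in all. Both strands were searched for TAATCC (an Otx-class homeobox core), TAATTA (a LIM-class homeobox core), TTGGCA (an NFI-class core), ACAAAG (a SOX core) and TATAAA (the core promoter box found before many starts), none of which contains another. There were 5 windows with a match and 10 with none. The windows below are those of Agt and Itih3, which both held TATAAA, and the window of Igsf1 that held TAATCC, with the match in capitals and each read 5′ to 3′ on the gene's strand.
Agt, chr8:124569657-124569956, minus strand: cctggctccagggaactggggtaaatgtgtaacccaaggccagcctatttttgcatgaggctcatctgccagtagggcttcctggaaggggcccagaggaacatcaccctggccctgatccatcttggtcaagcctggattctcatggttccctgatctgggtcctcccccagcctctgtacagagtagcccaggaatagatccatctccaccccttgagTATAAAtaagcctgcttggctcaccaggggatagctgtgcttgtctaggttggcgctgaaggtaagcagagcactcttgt
Itih3, chr14:30923538-30923837, minus strand: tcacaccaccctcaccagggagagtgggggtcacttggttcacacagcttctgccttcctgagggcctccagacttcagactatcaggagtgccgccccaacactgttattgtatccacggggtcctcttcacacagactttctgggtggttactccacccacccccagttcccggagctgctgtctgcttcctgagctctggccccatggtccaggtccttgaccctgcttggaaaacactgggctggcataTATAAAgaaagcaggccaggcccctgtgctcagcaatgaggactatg
Igsf1, chrX:49788194-49788493, minus strand: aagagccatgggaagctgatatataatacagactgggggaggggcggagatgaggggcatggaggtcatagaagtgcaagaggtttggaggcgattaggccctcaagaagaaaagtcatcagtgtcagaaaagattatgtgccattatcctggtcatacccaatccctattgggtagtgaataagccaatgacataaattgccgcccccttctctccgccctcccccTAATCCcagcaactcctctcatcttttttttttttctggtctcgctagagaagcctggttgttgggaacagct
The matches began at base 221 for Agt, 254 for Itih3 and 228 for Igsf1. The place of the annotated start within each window is not given here, so TATAAA is not read as a box before a start. One window of Etnppl held TTGGCA and one of Slc6a9 held CTTTGT, which is ACAAAG on the other strand. Windows of Slc6a11, Sparc, Sfrp5 and Lhx2 held none of the 5. Among 32851 mouse promoters of the same length, 13.6% held TATAAA, 7.06% TAATCC, 5.29% TAATTA, 14.1% TTGGCA and 18.7% ACAAAG, so a single match is common, and these letters are a description of the windows and not of factor binding.

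The label was first set against markers of other cells. Members held a median of 17 of 22 astrocyte genes, the same median as the Chst2 Hapln1 cells, and 3916 of the 3944 members (99.3%) held at least 10 of them. Most defining genes of microglia and vessels were at or near 0. C1qa, Tyrobp, Ctss, Ly6c1 and Vtn had no molecule in the members, and C1qb, C1qc, Cx3cr1 and Pecam1 had 1 each. The whole list of 8 microglial genes was not at 0, with 316 molecules in 298 members (7.56%). Its summed level was 109 CPM (molecules per 1000000) in members, 92.8 CPM in Chst2 Hapln1 cells and 31.5 CPM in brain cells with 4 or more neuron and neuroblast markers outside both groups. The list of 9 vascular genes had 341 molecules in 299 members (7.58%), most of them of Col1a1, which is given below. Its summed level was higher in members, with 118 against 50.5 CPM in Chst2 Hapln1 cells, a ratio of 2.33 (1.73 to 3.20). At least 2 markers of neurons or neuroblasts were present in 68 members (1.72%), of oligodendrocytes in 60 (1.52%), of oligodendrocyte progenitors in 46 (1.17%), of ependymal cells in 39 (0.989%) and of cycling cells in 10 (0.254%). In all, 210 members (5.32%) and 58 Chst2 Hapln1 cells (6.18%) held 2 or more markers of another type. Scrublet called 42 members (1.06%) and 11 Chst2 Hapln1 cells (1.17%) doublets, and these cells were kept. Members were therefore astroglial by these lists, and astrocytes and quiescent stem cells could not be told apart by the astrocyte list.

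The members were shallower than the cells they were compared with. They had a median of 674 molecules and 405 genes, against 950 molecules and 559 genes in Chst2 Hapln1 cells, and 17.1% against 14.96% of molecules were mitochondrial at the median. Summed over cells the members had 2898648 molecules and the Chst2 Hapln1 cells 990868. The share of members among kept brain cells ranged with depth from 57.4% of the 2041 cells with 600 to 800 molecules to 13.1% of the 191 cells with 2000 or more, where Chst2 Hapln1 cells made up 23.0%. Levels below are CPM, molecules per 1000000 summed molecules of a group. Shares of thinned cells with a gene were taken after thinning each cell to 400 molecules, which left 3612 members and 914 Chst2 Hapln1 cells. Shares that are not given for thinned cells are at full depth, which was not matched between the groups. As a background for free RNA, shares are given in cells with 4 or more neuron and neuroblast markers outside both groups, called neuroblast-marker cells. There were 1377 of them, with a median of 704 molecules, and 1295 were deep enough to be thinned. Their shares are after thinning where they stand beside thinned members. In the 2 libraries 18 kept cell indices were the same, and 10 of the members had an index that also stood in the tail file.

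**Figure D1:**
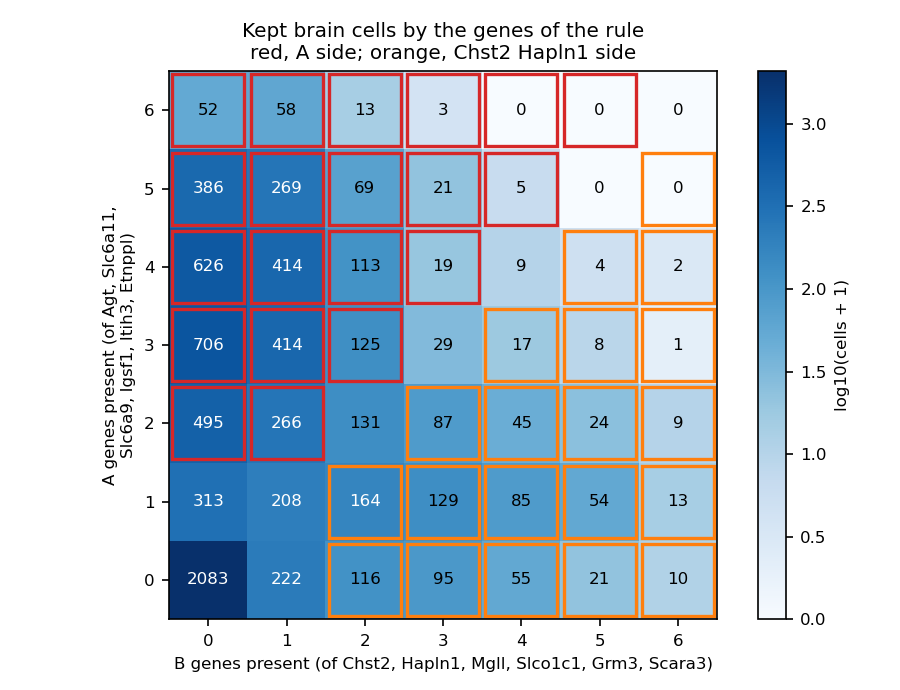
Number of kept brain cells by how many genes of the first list (vertical axis, Agt to Etnppl) and of the second list (horizontal axis, Chst2 to Scara3) were present, with shading on a log10 scale. Squares outlined in red are on the side of the members before cells with 3 or more Bergmann genes were left out, and orange outlines mark the Chst2 Hapln1 cells. The fullest corner holds 2083 cells with no gene of either list, and few cells lie where both lists are rich.

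The genes of the rule chose the cells, so their levels are a description. Slc6a11 was the most common, with 4389 CPM in members and 749 CPM in Chst2 Hapln1 cells, and it was present in 79.98% of thinned members against 0.463% of neuroblast-marker cells. Slc6a9 had 2930 CPM in members and 297 CPM in Chst2 Hapln1 cells. Itih3 had 1571 and 189 CPM, and Agt 1456 and 63.6 CPM. Igsf1 had 855 and 19.2 CPM and Etnppl 363 and 39.4 CPM. In the 250 cells with 3 or more Bergmann genes outside both groups, Slc6a9 had 1176 CPM and Itih3 866 CPM. Slc6a11 had 220 CPM there, Agt 174, Etnppl 42.0 and Igsf1 38.8 CPM. After thinning, Slc6a11 was still present in 25.2% of Chst2 Hapln1 cells, while Agt was present in 2.74% and Igsf1 in 1.09%. The order of detection in thinned members was Slc6a11, Slc6a9 (67.3%), Agt (45.2%), Itih3 (44.3%), Igsf1 (27.3%) and Etnppl (13.5%).

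Members varied in how many of the 6 genes they held. There were 680 members with 2, 1229 with 3, 1166 with 4, 743 with 5 and 126 with all 6. Their median depth rose with that number from 570 to 889 molecules, and the part of depth in that number was not tested. No gene of the second list was present in 2200 members (55.8%). Just inside the threshold the 680 members with 2 genes had a median of 16 astrocyte genes and 17.2% mitochondrial molecules. Just outside it, 313 cells with 1 gene of the first list and none of the second had a median of 13 astrocyte genes, 560 molecules and 13.7% mitochondrial molecules. A further 169 cells had 2 or more genes of the first list and as many of the second, with 18 astrocyte genes and 899 molecules at the median. A total of 110 cells met the gene counts but held 3 or more Bergmann genes and were left out.

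When a gene was taken out of the rule and the cells chosen with the other 11, it still differed between the groups. Agt had 1416 CPM in members chosen without it and 119 CPM in the compared cells, 11.9-fold higher (9.97 to 14.4). Igsf1 was 25.2-fold higher (17.9 to 36.6), Etnppl 6.26-fold, Slc6a9 5.89-fold, Itih3 5.57-fold and Slc6a11 4.71-fold. Genes of the second list were lower in members by 2.94-fold for Slco1c1, 3.57-fold for Grm3, 4.33-fold for Mgll, 4.43-fold for Scara3, 7.20-fold for Chst2 and 7.96-fold for Hapln1. Both lists had been drawn from these same cells, so the values describe how the genes of a list occur together and are no independent check of it.

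Across all genes, 7619 had at least 50 molecules over both groups, were not mitochondrial and were not among the 18 genes of the rule. A gene was counted as apart when the whole 95% interval of its CPM ratio, a conditional exact binomial interval, lay beyond 2-fold. By that measure 114 genes (1.5%) were higher in members and 117 (1.54%) were lower, and the median ratio over all 7619 genes was 0.945. The lists behind the rule came from these cells, so these counts describe the 2 groups and are not a test of their separation.

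Genes outside the rule also placed the members apart from the compared cells. Both lists were drawn from these same cells, and cells with as many genes of one list as of the other were in neither group. The values below are therefore a description and not a test of separation. In a principal component analysis of 2000 variable genes that left out the 18 rule genes, 94.9% of the 30 nearest neighbours of a member were members on average, against 80.8% from the numbers of cells alone. The same share around Chst2 Hapln1 cells was 27.7%. Another such analysis also left out mitochondrial genes. Its second component was higher in the member in 0.973 of the pairs of a member and a Chst2 Hapln1 cell. Clustering of both groups on its components put 3633 members (92.1%) and 44 Chst2 Hapln1 cells in one cluster. A different cluster held 842 Chst2 Hapln1 cells (89.7%) with 187 members (4.74%). A small set of cells of both groups lay far along the first component.

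**Figure D2:**
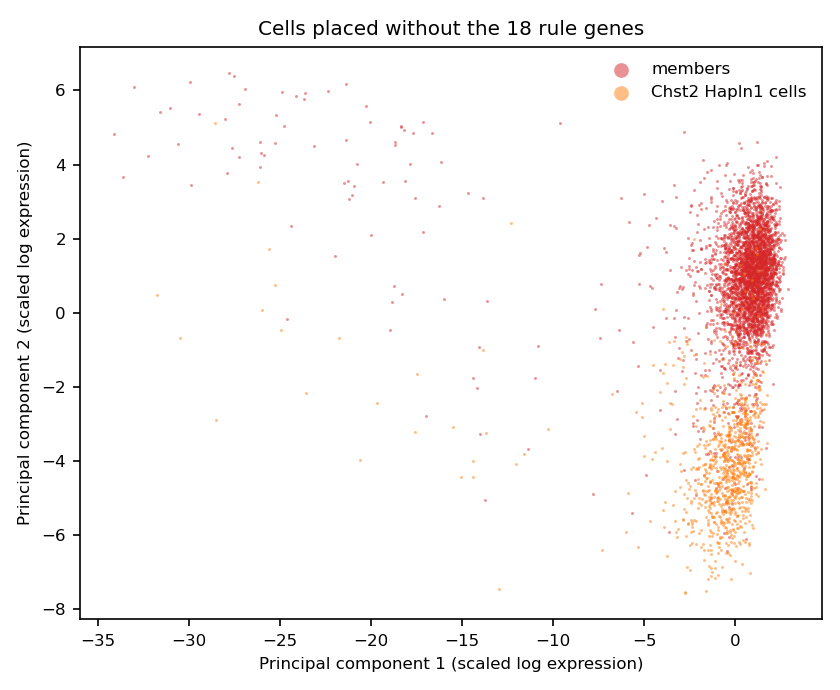
Each point is a cell placed on the first and second principal components of scaled log expression, computed without the 18 rule genes and without mitochondrial genes. Members (red) have a median of 1.04 on the second component and Chst2 Hapln1 cells (orange) a median of -4.07, and a thin trail of cells of both groups extends to the left.

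Among genes higher in members, Foxb1 had the highest lower bound of its ratio. It encodes a forkhead transcription factor of the developing diencephalon and midbrain. Foxb1 (ENSMUSG00000059246, GRCm38 chromosome 9, 69757710 to 69760940) had 210 molecules in 195 members, or 72.4 CPM (63.0 to 82.9), and no molecule in the 939 Chst2 Hapln1 cells. Against a floor of 3 molecules in the summed Chst2 Hapln1 cells, it was at least 23.9-fold higher, and the lower bound of the exact interval of its ratio was 19.3-fold. It had no molecule in the 1377 neuroblast-marker cells, which allows a share of up to 0.218% of cells with a molecule, and the 0 of 939 Chst2 Hapln1 cells allows up to 0.319%. In the tail library Foxb1 was present in 179 of 1964 kept cells (9.11%), at 79.5 CPM. No member held more than 3 molecules of it, so no single cell carried the sum. By number of rule genes its level was 79.7, 63.8, 86.6, 65.0 and 42.3 CPM in members with 2, 3, 4, 5 and 6 of them, the last from 5 molecules.

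Secreted and matrix proteins were among the genes that were higher. Sparc, a matricellular protein that astrocytes secrete and that acts on synapse formation, had 4812 CPM in members and 599 CPM in Chst2 Hapln1 cells, 8.03-fold higher (7.39 to 8.73). It was present in 79.2% of thinned members, 16.5% of thinned Chst2 Hapln1 cells and 0.927% of neuroblast-marker cells. Sparc was not particular to the members. In the 250 cells with 3 or more Bergmann genes outside both groups Sparc had 3445 CPM and was present in 71.4% of thinned cells. Against only the Chst2 Hapln1 cells with under 3 Bergmann genes, Sparc was 10.4-fold higher in members (9.43 to 11.4). In the tail library it was in 54.2% of kept cells, at 2188 CPM. Its level rose from 3663 CPM in members with 2 rule genes to 5485 CPM in those with 5, and was 5081 CPM in those with 6. Sfrp5, a secreted antagonist of Wnt signals, had 346 CPM against 23.2 CPM, 14.9-fold higher (9.89 to 23.6). Prss35, which encodes a serine protease-like protein, had 85.2 CPM against 8.07 CPM. Cyp26b1, an enzyme that degrades retinoic acid, had 85 molecules in 73 members and 1 molecule in the compared cells, a ratio of 29.1 (5.08 to 1161). When cells were thinned to 400 molecules before the rule was applied, the compared cells held none and Cyp26b1 had 37 molecules in members. That was 1.96-fold against a floor of 3 molecules, and the lower bound of the exact interval was 1.52-fold.

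The other genes of the 12 highest had various roles. Dpp6, an auxiliary subunit of A-type potassium channels, had 231 molecules in members and 3 in Chst2 Hapln1 cells, a ratio of 26.3 (8.90 to 129). Acvr1c, a type I receptor of the activin and Nodal pathway, was 14.8-fold higher, with 74.9 against 5.05 CPM. Cpne6, a calcium-dependent membrane-binding protein, was 14.2-fold higher, and Sez6l 12.6-fold. Susd4, an inhibitor of complement activation, was 13.2-fold higher, with 53.1 against 4.04 CPM. Each of these was found in a few percent of cells only, from 2.10% of thinned members for Susd4 to 4.73% for Sez6l.

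Nnat, an imprinted gene for a small membrane protein, differed in another way. It had 1937 CPM in members and 360 CPM in Chst2 Hapln1 cells, 5.38-fold higher (4.83 to 6.0). It was present in 37.1% of thinned members and 10.4% of thinned Chst2 Hapln1 cells, but also in 75.2% of neuroblast-marker cells, where it had 3624 CPM. Among thinned cells the neuroblast-marker cells held Sfrp5 in 0.154%, Sez6l in 1.31%, and Prss35 and Cyp26b1 in none.

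**Figure D3:**
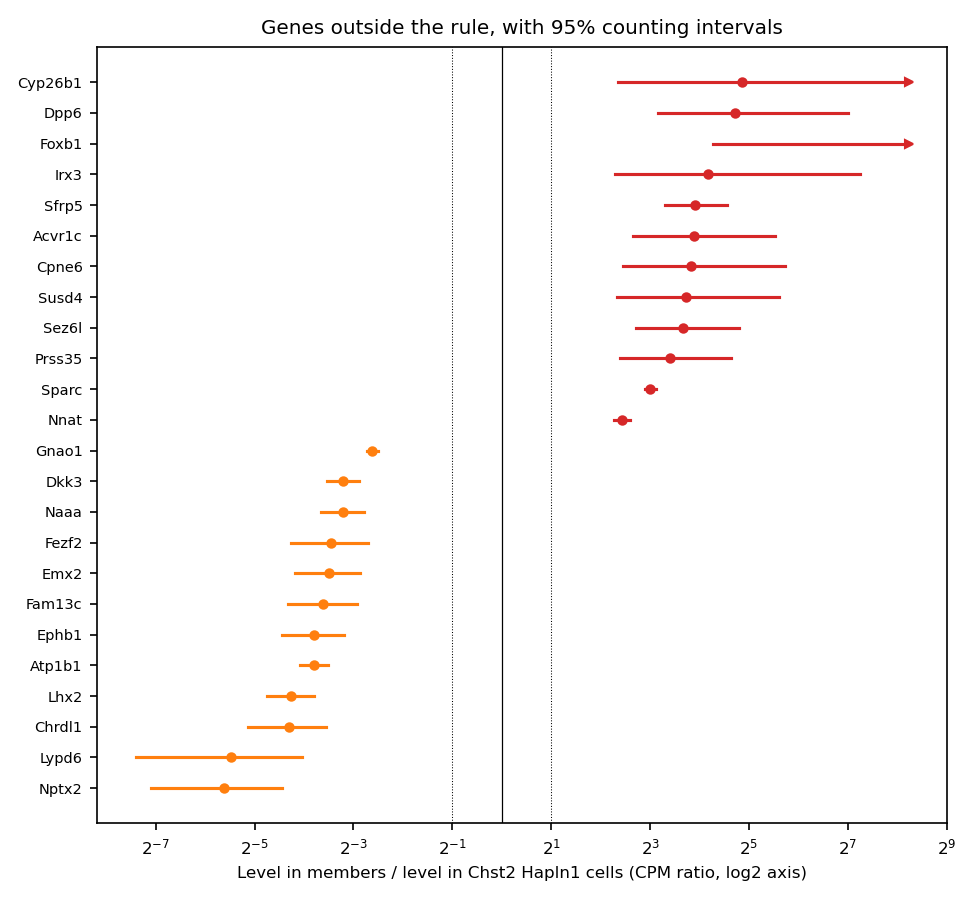
CPM ratio of members to Chst2 Hapln1 cells on a log2 axis, with 95% counting intervals (lines) and estimates (points). Red marks genes higher in members and orange those lower. Fam13c, Dkk3, Emx2, Naaa, Fezf2 and Gnao1 are drawn from the cells with 10 or more astrocyte genes and under 2 oligodendrocyte markers, the rest from all cells of both groups, and genes of myelin are not drawn. The line of Foxb1 has no point because the compared cells held none, arrows mark intervals that run past the axis, and dotted lines mark 2-fold.

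Of the 12 genes that ranked as lowest in members, 6 were genes of myelin-forming cells, among them Mal, Cldn11, Ermn, Mag and Tspan2. Between 99.5% (Mal) and 100% (Ermn, Mag and Tspan2) of the molecules of these 5 genes in Chst2 Hapln1 cells lay in 17 cells with 2 or more oligodendrocyte markers. With all cells in, Mal, a membrane protein of myelin, was 25.4-fold lower in members, and Cldn11, the claudin of myelin sheaths, 19.8-fold lower. Without such cells none of the 5 had more than a single molecule left in the compared cells, and no fold can be given.

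The remaining 6 were not carried by those cells. Nptx2, a neuronal pentraxin that clusters glutamate receptors, had 6 molecules in members and 101 in Chst2 Hapln1 cells, 49.2-fold lower (21.9 to 137). Lypd6, a GPI-anchored modulator of Wnt and nicotinic receptor signalling, had 4 and 61 molecules. Lhx2, a LIM-homeodomain factor of the developing cortex and hippocampus, had 15.5 CPM in members and 298 CPM in Chst2 Hapln1 cells, 19.2-fold lower (14.0 to 26.9). Chrdl1, a secreted antagonist of bone morphogenetic proteins, was 19.8-fold lower. Atp1b1, a beta subunit of the sodium pump, had 41.4 and 574 CPM, 13.9-fold lower, and the receptor tyrosine kinase Ephb1 was 13.9-fold lower.

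The ranking was repeated in the 3856 members and 909 Chst2 Hapln1 cells with 10 or more astrocyte genes and under 2 oligodendrocyte markers, a choice made after these values were seen. Of the 12 highest genes 9 were shared with the first ranking, and Car14, Nkx6-2 and Tmem117 were new, each with no molecule left in the compared cells. Of the 12 lowest 6 were shared. The other 6 lowest genes were Fam13c, Dkk3, Emx2, Naaa, Fezf2 and Gnao1. Emx2 and Fezf2 are transcription factors of the developing forebrain. In these cells Emx2 was 11.4-fold lower in members, with 9.21 against 105 CPM, and Fezf2 was 11.0-fold lower, with 6.73 against 73.9 CPM. Dkk3, a secreted protein of the Dickkopf family, was 9.28-fold lower. Gnao1, the alpha subunit of the Go protein, had 328 against 2016 CPM, 6.14-fold lower (5.67 to 6.65), and over the whole groups it was in 11.0% of thinned members against 50% of thinned Chst2 Hapln1 cells.

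Transcription factors that mark regions of the neural tube were lists of their own. The list of telencephalic regulators held 8 genes. Its summed level was 133 CPM in members and 733 CPM in Chst2 Hapln1 cells, a ratio of 0.181 (0.160 to 0.205). Of the 6 with enough molecules, 4 were beyond 2-fold lower and none was higher, against 1.54% and 1.5% of all tested genes. The median ratio was 0.159 beside 0.945 over all genes. Dmrta2, a factor of the cortical hem and hippocampal primordium, was 6.99-fold lower. Otx1 had 32.4 against 49.5 CPM, with an interval that crossed 2-fold. At full depth, any gene of the list was present in 6.77% of members, in 47.8% of Chst2 Hapln1 cells and in 75.8% of neuroblast-marker cells.

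The list of diencephalic and midbrain regulators went the other way. It held 22 genes, 18 of them listed in the brain file, and its summed level was 457 CPM in members and 201 CPM in Chst2 Hapln1 cells, a ratio of 2.28 (1.96 to 2.66). Of the 7 with enough molecules, 5 were beyond 2-fold higher and none was lower, against 1.5% and 1.54% of all tested genes. The median ratio was 6.52. The list was not highest in members. In the 250 cells with 3 or more Bergmann genes outside both groups it had 620 CPM, and the telencephalic list had 38.8 CPM there. Otx2, which specifies forebrain and midbrain, had 98.7 CPM in members and 15.1 CPM in Chst2 Hapln1 cells, 6.52-fold higher (3.89 to 11.8). The Iroquois genes, which pattern the thalamus and midbrain among other regions, were higher by 6.95-fold for Irx1, 13.0-fold for Irx2, 18.1-fold for Irx3 and 6.04-fold for Irx5. Tcf7l2, which is strongly expressed in the thalamus, had 180 against 146 CPM, a ratio of 1.23 (1.02 to 1.49), and Pax3 had a ratio of 1.196 (0.618 to 2.50). En1, a midbrain and hindbrain factor, had 22 molecules in members and 0 in Chst2 Hapln1 cells, and the hypothalamic factor Nkx2-1 had 10 and 0.

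Hox genes, which are expressed from the hindbrain to the tail end of the cord, were nearly undetected. Of 20 listed Hox genes 4 stood in the brain file, with 4 molecules in members and 5 in Chst2 Hapln1 cells. The ratio was 0.273 (0.0543 to 1.27). The interval lay below 1 with 3 or more genes required, at 0.179 (0.0279 to 0.922), and as a mean over cells, at 0.145 (0.0287 to 0.672), so 9 molecules did not settle whether the level differed. Their summed level in members was 1.38 CPM.

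**Figure D4:**
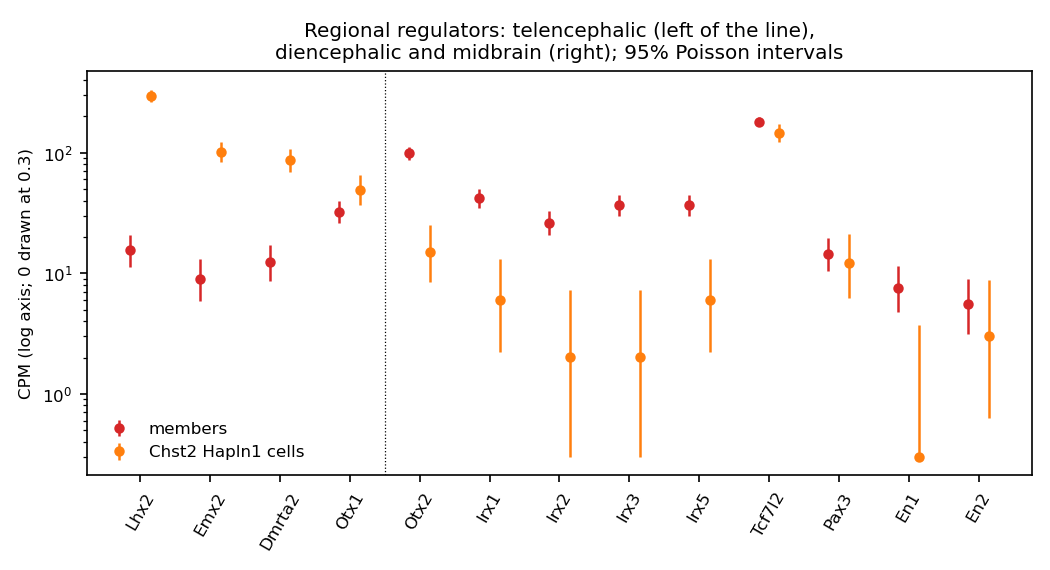
Level in CPM (log axis) of 13 regional transcription factors in members (red) and Chst2 Hapln1 cells (orange), with exact Poisson 95% intervals and a level of 0 drawn at 0.3. Left of the dotted line the telencephalic genes Lhx2, Emx2 and Dmrta2 are higher in Chst2 Hapln1 cells, and right of it Otx2 and the Irx genes are higher in members, while Tcf7l2 and Pax3 overlap.

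Each of these factors was detected in a minority of members, with shares at full depth unless thinning is named. Otx2 was present in 263 members (6.67%), at least 1 Irx gene in 376 (9.53%), Foxb1 in 195 (4.94%), En1 or En2 in 37 (0.938%) and Tcf7l2 in 468 (11.9%). At least 1 of Lhx2, Emx2 and Dmrta2 was present in 81 members (2.05%) and in 331 Chst2 Hapln1 cells (35.3%). After thinning, Lhx2 was present in 0.581% of members and 12.1% of Chst2 Hapln1 cells, against 0.989% and 24.9% at full depth. An Irx gene was present in 32 of the 195 members with Foxb1 (16.4%) and in 9.18% of members without it, with nearly equal median depths of 689 and 674 molecules. Of the 263 members with Otx2, 43 had an Irx gene (16.3%), against 9.05% of the others, with median depths of 736 and 669 molecules. None of the 195 members with Foxb1 held Lhx2, Emx2 or Dmrta2, and 2.16% of the other members did.

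Genes that astrocytes use in common were near parity as a list and differed one by one. The 22 astrocyte genes had a summed level of 130425 CPM in members and 126241 CPM in Chst2 Hapln1 cells, a ratio of 1.03 (1.03 to 1.04). Their median ratio was 1.05, and 1 of 22 was beyond 2-fold in each direction, against 1.5% (higher) and 1.54% (lower) of all tested genes. The gene that was higher was Kcnj10, the inward rectifier potassium channel Kir4.1, with 1267 against 535 CPM, 2.37-fold (2.16 to 2.60). The gene that was lower was Glul, glutamine synthetase, with 4038 against 8735 CPM, 2.16-fold (2.10 to 2.22). The glutamate transporters Slc1a3 and Slc1a2 had ratios of 0.550 and 0.536. The water channel Aqp4 had a ratio of 2.001 and the bicarbonate cotransporter Slc4a4 of 1.96.

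Ion and junction genes were on balance higher. Over 15 such genes the summed level had a ratio of 1.55 (1.54 to 1.57), the median ratio was 1.37, and 11 of 15 had a ratio above 1. Kcnj10 and Gjb2, 2 of the 15, were beyond 2-fold higher, against 1.5% of all tested genes. Gjb2 encodes connexin 26 and had 79.0 against 25.2 CPM, 3.13-fold higher (2.07 to 4.94). Kcnj16, a partner of Kcnj10, had a ratio of 2.20 (1.89 to 2.58), and Gjb6, connexin 30, a ratio of 1.82. The pump subunit Atp1b2 had a ratio of 1.84, while the beta subunit Atp1b1, given above, was lower in members.

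Amino acid transporters other than those of the rule had a summed ratio of 1.38 (1.34 to 1.43), with none of 10 tested genes beyond 2-fold in either direction and a median ratio of 1.08. Slc7a10, a transporter of small neutral amino acids, had 1428 against 800.3 CPM, a ratio of 1.78. Slc6a13, a GABA transporter, had 1 molecule in the members. Genes for the breakdown of GABA had a summed ratio of 1.07 (1.01 to 1.13) and none of 6 was beyond 2-fold, with a median ratio of 1.06. Abat, GABA transaminase, had 317 against 246 CPM. Genes of glycine and serine metabolism were lower, with a summed ratio of 0.532 (0.491 to 0.577) and a median ratio of 0.803. Against 1.54% of all tested genes, 2 of the 9 tested here were beyond 2-fold lower. These were Gldc, the decarboxylase of the glycine cleavage system, which was 5.40-fold lower with 24.8 against 134 CPM, and Psat1, an enzyme of serine synthesis, which was 3.06-fold lower.

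Partners of Agt in the classical renin-angiotensin pathway were at or near 0 in the members. Agtr1b and Agtr2, which encode angiotensin receptors, and Enpep, an aminopeptidase of angiotensin, had no molecule, and Ace, the converting enzyme, had 2. Of 12 genes of the pathway 7 were listed in the brain file. The widely expressed Atp6ap2, the prorenin receptor, had 296 against 222 CPM, a ratio of 1.33, and Ctsd and Lnpep had ratios of 1.15 and 0.904. None of the 3 genes with enough molecules was beyond 2-fold. The summed level of the list had a ratio of 1.19 (1.07 to 1.32).

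Matrix genes of the neuropil had a summed ratio of 1.46 (1.43 to 1.49) and a median ratio of 0.973. Of 8 tested genes 1 was beyond 2-fold higher (Sparc) and 1 lower, against 1.5% and 1.54% of all tested genes. The one that was lower was Cspg5, neuroglycan C, with 866 against 3030 CPM, 3.50-fold (3.32 to 3.69), and it was present in 27.0% of thinned members against 68.7% of thinned Chst2 Hapln1 cells. The related Sparcl1, also called hevin, had a ratio of 1.58, and the proteoglycan Bcan of 1.06. Itih2, another heavy chain of the family of Itih3, had 4 molecules in the members, and Itih5 139.7 against 133 CPM.

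Genes of thyroid hormone handling had a summed ratio of 0.703 (0.650 to 0.761). Of the 6 tested 1 was beyond 2-fold higher and 2 were beyond 2-fold lower, against 1.5% and 1.54% of all tested genes. Dio2, the deiodinase that activates the hormone, was 3.26-fold lower in members, with 104 against 338 CPM. Hr, a corepressor of thyroid hormone receptors, was 3.11-fold higher (2.12 to 4.74), with 91.1 against 29.3 CPM. Crym, which binds the hormone, had 3 molecules in members and 28 in Chst2 Hapln1 cells. The receptors Thra and Thrb had ratios of 1.09 and 0.716, with both intervals including 1. Over the 6 tested genes the median ratio was 0.806. Enzymes of ethanolamine and phospholipid metabolism, the pathway of Etnppl, had a summed ratio of 1.08 (0.987 to 1.18) and none of 8 was beyond 2-fold, with a median ratio of 1.09.

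Among 17 tested receptors of astroglia 2 were beyond 2-fold higher and none was lower, against 1.5% and 1.54% of all tested genes. Their median ratio was 1.196. Adra2a, the alpha-2A adrenergic receptor, had 331 against 72.7 CPM, 4.55-fold higher (3.58 to 5.86), and was present in 11.9% of thinned members, 3.06% of thinned Chst2 Hapln1 cells and 0.0772% of neuroblast-marker cells. P2ry1, a receptor for ADP, had 151 molecules in members and 5 in Chst2 Hapln1 cells, a ratio of 10.3 (4.33 to 32.3). Grm5, a metabotropic glutamate receptor, had a ratio of 3.03 (1.81 to 5.45), and the endothelin receptor Ednrb of 1.98. Cnr1, the cannabinoid receptor, had 3 molecules in members and 32 in the compared cells, which was under the minimum.

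Genes of neural stem cells differed one by one. The 17 genes had a summed ratio of 0.825 (0.795 to 0.857), with 6 of the 14 tested above 1 and a median ratio of 0.851. Of those 14, 4 were beyond 2-fold lower and none higher, against 1.54% and 1.5% of all tested genes. Among the 4, Id4, an inhibitor of differentiation tied to quiescence, was 3.76-fold lower, Nr2e1, a nuclear receptor of forebrain stem cells, 3.53-fold, and Vim, an intermediate filament, 2.93-fold. Nes, the intermediate filament nestin, had 6 molecules in all members. Gfap had 94.2 against 71.7 CPM, a ratio of 1.31, and Hes1 a ratio of 1.44. Sox1, the gene behind the reporter, had 250 molecules in 239 members, 86.2 CPM against 50.5 CPM, a ratio of 1.71 (1.26 to 2.37). Olig2 and Olig1 had 151 and 101 CPM in members with ratios of 1.74 and 1.64, while the progenitor genes Pdgfra and Gpr17 had no molecule and Sox10 had 3.

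Genes induced by dissociation were close between the groups, and the list of metallothioneins and stress genes was lower in members. The dissociation list had a summed ratio of 1.02 (0.933 to 1.13), with 613 CPM in members against 598 CPM in Chst2 Hapln1 cells, and 16404 CPM in neuroblast-marker cells. Cycling markers had a ratio of 0.449 (0.359 to 0.564). The 6 metallothionein and stress genes had 5748 against 8289 CPM, a ratio of 0.693 (0.675 to 0.712), with none of the 5 tested beyond 2-fold and a median ratio of 0.758. Mt3, a metallothionein of that list, had 1024 against 2058 CPM, a ratio of 0.497 (0.470 to 0.527). Col1a1 accounted for 329 of the 341 molecules of vascular markers in the members, in 293 cells, and had a ratio of 2.68 (1.94 to 3.79).

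Members were clustered among themselves into 8 clusters, numbered from 0. The borders were unstable, with an adjusted Rand index of 0.424 to 0.496 against 4 other random starts. For each cluster the best overlap with any cluster of another start was measured as a Jaccard index, the cells in both over the cells in either. It was 1 in every start for cluster 7 and 0.718 to 0.807 for cluster 3, and at its lowest 0.611 for cluster 1 and 0.110 to 0.420 for the other 5. The clusters were made from the 2000 most variable genes of these cells, without mitochondrial genes, so their leading genes are a description.

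Cluster 3, with 1019 members (25.8%), was led by Nkx6-2, Nnat, Six3, Shisal1 and Apoc1. Nnat had 4430 CPM there and 1208 CPM in the other members. Six3, a homeobox factor of the ventral forebrain, had 74.7 against 21.4 CPM, and Nkx6-2, another homeobox factor, 67.1 against 8.92 CPM. Of the rule genes, Slc6a11 (5011 CPM), Itih3 (2612 CPM), Agt (1966 CPM) and Igsf1 (1471 CPM) had their highest cluster level there. Sparc did too, at 6851 CPM. Igfbp2, an insulin-like growth factor binding protein, had 24.4 CPM there and 301 CPM in the other members. Foxb1, at 74.7 against 71.8 CPM, did not set the cluster apart.

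Cluster 1, with 275 members (6.97%), was led by Hopx, Dkk3, Naaa, Atp1b1 and Gnao1, of which Hopx is one of the Bergmann genes of the rule and the other 4 were lower in members than in Chst2 Hapln1 cells. Gnao1 had 1006 CPM in the cluster, 273 CPM in the other members and 1989 CPM in Chst2 Hapln1 cells. Lhx2 had 114 against 7.11 CPM and Id4 549 against 170 CPM. Sparc and Sfrp5 were lower there than in the other members, at 2441 against 5014 CPM and 158 against 362 CPM.

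Cluster 7, with 67 members (1.70%), was led by Islr2, Dlx1, Igfbpl1, Dlx6os1 and Tmsb10, and 92.5% of its cells held 2 or more markers of neurons or neuroblasts. Its median depth was 1162 molecules. Slc6a11 had 1979 CPM there and Agt 746 CPM, and the cells held a median of 16 astrocyte genes. Dlx1, a homeobox factor of interneuron precursors, had 1297 CPM in these cells and 4.99 CPM in the other members. The part of doublets in this cluster was not tested.

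The other clusters had looser borders. Cluster 5 (270 members) had Gfap, Slc38a1, Gdf10 and C4b among its 5 leading genes, and Gfap had 898 CPM there and 39.1 CPM in the other members. Cluster 6 (12 members) was led by Cd24a, Zfp36, Vim, Hsp90aa1 and Pltp, all 12 held 2 or more ependymal markers, and their median of astrocyte genes was 10.5. Cluster 0 (745 members) had Ptgds, Nfasc, Cyp26b1 and Kcnq1ot1 among its 5 leading genes. Ptgds was present in 0.671% of its cells, so few of them carried it. Cluster 2 (818 members) was led by Fzd10, Lgr6, Rnf141, Slc4a1ap and Sez6l, and cluster 4 (738 members) by Hbb-bs, Hba-a2, Hba-a1, Fzd8 and Cbr1. The globin genes of cluster 4 were present in under 1% of its cells, 0.136% for Hbb-bs, so few of its cells carried them.

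**Figure D5:**
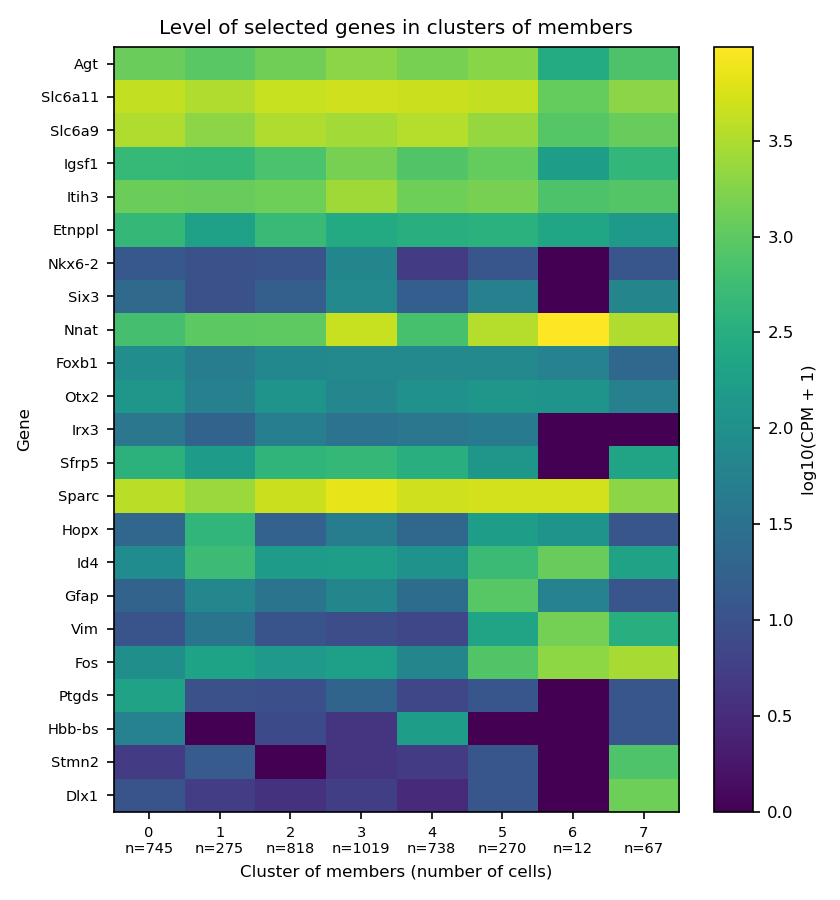
Level of 23 genes, as log10(CPM + 1), in the 8 clusters of members, with the number of cells under each cluster. Slc6a11, Slc6a9 and Sparc are bright in every cluster, Nnat is brightest in cluster 6, then in cluster 3, Hopx in cluster 1, Gfap in cluster 5, and Stmn2 and Dlx1 in cluster 7.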

How the data were processed

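The authors deposited counts of molecules per gene and barcode, before and after error correction, for 1 brain and 1 tail library. The file headers name the BD Rhapsody WTA Analysis Pipeline 1.10.1 on GRCm38 with GENCODE annotation. The methods of the study give that pipeline in another version, and UMI-tools 1.0.1, STAR 2.7.1a and featureCounts 1.6.4 as the other route. A barcode was kept if its gene number lay between 200 and 4000 and its mitochondrial share was below 40%, which left 7988 of 12111 in brain and 1964 of 2469 in tail. The brain file held 7462281 molecules from 9229974 reads (1.24 reads per molecule).

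Corrected counts were summed over the cells of a group and expressed as CPM. Levels have exact Poisson, ratios conditional exact binomial and shares Clopper-Pearson 95% intervals, for counting error only. With 1 library per group no test was run. Doublet calling and clustering used scanpy 1.11.5, and TMM and median-ratio scaling edgeR 4.0.16 in R 4.3.3. The intervals were tried on data simulated with counting error only, the error they assume, and 95.5% covered the true ratio. Uneven spread of molecules over cells was not simulated, so the trial cannot tell how they behave under it.

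Named genes are the top 12 either way by the bound of the ratio interval closest to 1, genes of 26 lists, and the 5 leading genes of each cluster. Igfbp2 and the genes new in the repeated ranking were chosen after their values were seen. The members and lists were chosen with earlier results of these data known. Some genes that meet the rule are not reported here. Alternatives are given in the closing section.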

Additional observations from a re-analysis of the deposited data

Results flagged for a closer look

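Signals of the same kind appeared in barcodes outside the comparison. Among 4123 brain barcodes that failed the filters, 411 met the rule of the members (9.97%, 95% interval 9.07 to 10.9). Of the failed barcodes 3913 had 200 genes or fewer, and of the 3428 with 40% or more mitochondrial molecules 203 met the rule (5.92%).

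In the tail library 13 of 1964 kept cells met the rule of the members (0.662%, 0.353 to 1.13) and 19 met that of the Chst2 Hapln1 cells (0.967%). Agt had 6 molecules in all kept tail cells, Igsf1 9, Itih3 2 and Etnppl 0, while Slc6a9 had 113 and Slc6a11 75. A total of 10 members shared a cell index with a barcode of the tail file, and the part of shared indices in these values was not tested.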

How the results depend on the processing

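No paired analysis was possible because each group had 1 library and the labels give no shared replicate numbers. The share of members among kept brain cells, 49.4%, became 43.8% under 20% mitochondrial molecules, 40.9% with 3 or more genes required, 66.6% without cells holding 2 markers of another type, and 44.8% when cells were thinned to 400 molecules before the rule. Without 1 gene it was 46.4% (Agt), 40.97% (Slc6a11), 43.1% (Slc6a9), 48.1% (Igsf1) and 45.96% (Itih3). The counts of genes beyond 2-fold, 114 higher and 117 lower, became 43 and 43 after thinning before the rule, 55 and 63 after thinning following it, 62 and 59 with a minimum of 200 molecules, and 219 lower with no minimum. The ratio of telencephalic regulators, 0.181, moved between 0.127 (thinned before the rule) and 0.217 (under 20% mitochondrial), with 0.150 for 3 or more genes, 0.138 without cells of 2 other markers and 0.152 as a mean over cells. TMM and median-ratio scaling shifted all log2 ratios by 0.13 and 0.12. With them the ratio of astrocyte genes, 1.03, became 1.13 and 1.12, and that of stem cell genes, 0.825, became 0.906 and 0.897. The astrocyte ratio was 1.06 without mitochondrial totals, 1.0003 with 3 or more genes, 1.02 without cells of 2 other markers and as a mean over cells, 1.03 against cells with under 3 Bergmann genes, and 1.01 in cells with 10 or more astrocyte genes and under 2 oligodendrocyte markers. The last pair of alternatives was added after the data had been seen. The stem cell ratio was 0.899 when thinned before the rule, 0.858 when thinned after it and 0.895 against cells with under 3 Bergmann genes. Of 118 alternative values of the share, counts, list ratios and neighbour share, 84 stayed within the counting interval of the reported value (1.5 times for a count, the spread between members for the neighbour share) and 34 did not. The cause was not tested.

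Of 286 alternative values of named genes 283 kept their direction by the computed ratio. In 274 the whole interval lay beyond 2-fold in either direction. Mal (6.58), Cldn11 (3.59) and Mag (2.89, a bound) turned to higher in members with 3 or more genes required. Mag, with a lower interval bound of 2.20, is among the 274. Under that setting Ermn (4 molecules in members, 0 in Chst2 Hapln1 cells) and Tspan2 (8 and 0) were found in members only. The floor of 3 molecules gave them ratios of 0.399 and 0.797, so they were counted among the 283. Mal was counted there too at 0.665 (0.0346 to 39.3) without cells of 2 other markers, from 2 molecules in members and 1 in Chst2 Hapln1 cells. In cells with 10 or more astrocyte genes and under 2 oligodendrocyte markers Mal was at 0.671 (0.0349 to 39.6). Such intervals leave the direction of Mal unsettled. A further 13 values, all of myelin genes, gave no fold because 1 group held no molecule and the other 3 or fewer. Thinning leaves fewer molecules, which lowers the bounds. Bounds here are ratios to a floor of 3 molecules, and each is followed by the lower bound of the exact interval. Thinned before the rule, Cyp26b1 (29.1) had a bound of 1.96 (exact 1.52), Irx3 (18.1) of 2.71 (exact 2.12) and Cpne6 (14.2) of 3.98 (exact 3.16). Acvr1c (14.8) was at 7.25 and Dpp6 (26.3) at 17.0. Thinned after the rule, Cyp26b1 had a bound of 3.04 (exact 2.35), Susd4 (13.2) of 6.58 (exact 5.23) and Foxb1 (23.9) of 9.78 (exact 7.83). Irx3 was at 7.09 and Acvr1c at 8.60. Irx3 was also 27.5 with 3 or more genes and 33.1 as a mean over cells, and Cyp26b1 16.6 under 20% mitochondrial molecules and 19.1 with 3 or more genes.

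Members and Chst2 Hapln1 cells came from the same library, so spread between animals is unknown, and brain and tail cannot be told apart from their libraries. Depth, a median of 674 molecules per member, limits the share of cells in which a rare RNA is detected.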
